A study of Mus musculus with 2 samples.

Results

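Cholesterol and fatty acid synthesis was followed through 30 genes in immune cells, and in clusters with almost no CD45 RNA, from mouse CT26 tumours. The genes were chosen by symbol, and all 30 were found among the 32285 genes of the deposited matrices. They comprise 7 enzymes of the mevalonate pathway (Acat2, Hmgcs1, Mvk, Pmvk, Mvd, Idi1 and Fdps), 11 enzymes of squalene and sterol synthesis (Fdft1, Sqle, Lss, Cyp51, Tm7sf2, Msmo1, Nsdhl, Hsd17b7, Ebp, Sc5d and Dhcr7), 4 sterol regulators or carriers (Insig1, Srebf1, Srebf2 and Stard4) and 8 enzymes of fatty acid synthesis (Acly, Acaca, Fasn, Elovl6, Scd1, Scd2, Fads1 and Fads2). The Arg library came from a BALB/c group read as the one fed an arginine-deficient diet matched in calories, because the series' design text names that arm and the label of the library itself names no diet. The Control library came from the group on a normal diet. Both diets began at 5 weeks of age, 1 week ahead of the subcutaneous injection of CT26, a line from a mouse colorectal carcinoma, and tumour cells were collected on day 20. Both libraries hold cells kept by CD45 magnetic beads and run on the droplet 10x 3′ v3 system. The sources used here do not give how many mice were pooled into a library.

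Cells build cholesterol from cytosolic acetyl-CoA. Acly makes that acetyl-CoA from citrate, the mevalonate enzymes turn it into the isoprenoid farnesyl diphosphate, and Fdft1, Sqle and Lss fold that product into the first sterol, which the later enzymes trim to cholesterol. The same acetyl-CoA feeds Acaca and Fasn, which build palmitate, and Elovl6, the Scd enzymes and the Fads enzymes lengthen and desaturate fatty acids. Srebf2 and Srebf1 encode SREBP transcription factors that stay in the endoplasmic reticulum with the help of Insig1 while sterols are plentiful, and that switch on the synthesis enzymes once released. In T cells the pathway is known to be used during growth and division, and in macrophages it is opposed by LXR, a nuclear receptor for oxidised sterols that drives cholesterol export.

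After filtering, 12991 Arg cells and 12800 Control cells remained, with median depths of 8294 and 10021 unique molecular identifiers (UMIs, counted RNA molecules). The libraries shared 40 kept barcodes, and no class median given below changed sign without those cells. Cells were grouped into 15 classes by marker genes, with the 30 genes and 50 other lipid genes kept out of the clustering, and 914 Arg and 775 Control cells stayed unnamed. Clusters C7 and C15 were led by Hmga2, Rhox5, Zfpm2 and Ghr and held almost no RNA of Ptprc, the CD45 gene (41.6 CPM in Arg and 20.0 CPM in Control, against at least 228 and 174 CPM in every immune class). Of 7 epithelial markers, Epcam, Krt8, Krt19, Krt7, Cldn7 and Cldn4 were at most 1.44 CPM in them and Krt18 was at 6.82 CPM in Arg and 15.6 CPM in Control, above its level in any other class. The 2 clusters are therefore called the Hmga2 and Rhox5 clusters here and not epithelial cells. They made up 3.87% of Arg cells and 11.7% of Control cells. From the 5 leading genes of these clusters, their RNA was estimated at 0.164% to 1.06% of the RNA of the immune classes in Arg and 0.295% to 2% in Control.

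The promoters of Idi1 and Cyp51, the 2 genes called lower in Arg in the most classes, and of Hmgcs1 are shown first. Among the 23 genes with a promoter entry, Hmgcs1 was the only one in which the classic sterol regulatory element was found. The 300-base windows hold 250 bases before the start in RefSeq on GRCm38.p6 and 50 bases from the start on. The start base is position 1, and there is no position 0. Fdps (chr3:89093588-89101959, minus strand) and Scd2 (chr19:44293674-44306864, plus strand), which also carry the differences, had no promoter entry. Capitals mark the sterol regulatory element TCACCCCAC, the CCAAT box and the GC box GGGCGG, each searched on both strands, so ATTGG and CCGCCC are the opposite-strand forms.
Idi1 (chr13:8885356-8885655, plus strand): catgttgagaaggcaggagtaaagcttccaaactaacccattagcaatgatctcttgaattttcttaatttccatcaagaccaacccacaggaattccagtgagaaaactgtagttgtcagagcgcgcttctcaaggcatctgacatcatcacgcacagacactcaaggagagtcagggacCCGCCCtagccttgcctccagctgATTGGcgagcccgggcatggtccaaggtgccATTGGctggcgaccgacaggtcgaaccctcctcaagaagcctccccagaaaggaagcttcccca
Cyp51 (chr5:4104648-4104947, minus strand): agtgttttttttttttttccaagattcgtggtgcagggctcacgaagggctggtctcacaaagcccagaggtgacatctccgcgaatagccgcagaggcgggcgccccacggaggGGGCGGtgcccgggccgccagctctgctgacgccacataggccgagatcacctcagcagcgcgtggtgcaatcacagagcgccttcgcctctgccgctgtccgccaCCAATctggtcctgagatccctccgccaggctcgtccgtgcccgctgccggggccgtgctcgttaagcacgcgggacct
Hmgcs1 (chr13:119690101-119690400, plus strand): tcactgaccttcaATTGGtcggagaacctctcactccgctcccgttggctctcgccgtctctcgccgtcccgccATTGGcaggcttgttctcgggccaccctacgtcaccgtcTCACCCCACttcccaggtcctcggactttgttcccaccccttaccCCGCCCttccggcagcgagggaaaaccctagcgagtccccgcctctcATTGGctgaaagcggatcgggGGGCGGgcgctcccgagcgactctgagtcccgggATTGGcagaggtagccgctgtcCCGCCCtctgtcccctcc
The Hmgcs1 window holds the element at position −137, between CCAAT boxes at positions −176 and −45. Of the 30 genes, 23 had a promoter entry. A gene counted as holding a motif if any of its promoter windows did. The element was found for 1 of these 23 genes (4.35%), against 0.614% of 27025 genes. CCAAT boxes were in 19 of 23 (82.6%, against 41.1% of all) and GC boxes in 19 of 23 (82.6%, against 38.2%). The marked matches do not overlap each other in the 3 windows shown. These matches describe letters and not bound sites.

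The question put to the data was whether the arginine-deficient library differed from Control in these genes within each cell type. UMIs were summed per class and library and scaled to counts per 1000000 (CPM). Ratios are log2 of Arg over Control with 5 CPM added to both levels. A gene counted as measured in a class at a mean of at least 10 CPM, and a log2 ratio of at least 0.5 in size was called. Adding 20 CPM in place of 5 shrank the ratios of low genes and left 11 of 16 calls in the Hmga2 and Rhox5 clusters, 2 of 6 in monocytes, 2 of 4 in macrophages, 2 of 5 in CD8 T cells, 1 of 3 in NK cells and 0 of 2 in cDC2. With 1 library per diet there is no replicate check and no test, so every difference is between these libraries, and the 95% intervals given in brackets are exact Poisson intervals that cover counting error only. In such sums, fewer expressing cells and less RNA per cell cannot be told apart. The sources used here do not give strand or intron use in counting. Cyp51 and Akap9, Fdft1 and Ctsb, and Srebf1 and Rai1 overlap on opposite strands, where counting by strand would keep their reads apart. Tm7sf2 and Vps51 overlap on the same strand. How reads in these overlaps were assigned was not tested, and Acat2 is uncertain because Acat3 is a near-identical copy.

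In the 11 classes that held 100 or more cells of each library, the synthesis genes were mostly lower in Arg in the Hmga2 and Rhox5 clusters, monocytes, macrophages, CD8 T cells and NK cells. Their median log2 ratio was −0.64 in the Hmga2 and Rhox5 clusters, −0.31 in monocytes, −0.29 in macrophages, −0.28 in CD8 T cells and −0.29 in NK cells. The medians of all measured genes in those classes were −0.06, 0.06, −0.0005, −0.01 and 0.01. Type 2 conventional dendritic cells (cDC2) were the class with a positive median, at 0.20 against 0.04 for all genes. Idi1 was below Control in 11 of the 11 classes in which it was measured and called lower in 6. Cyp51 was below Control in 8 of 11 classes and also called lower in 6. Ebp and Acly had lower values in Arg in 3 of 11 classes each and were called in none.

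**Figure D1:**
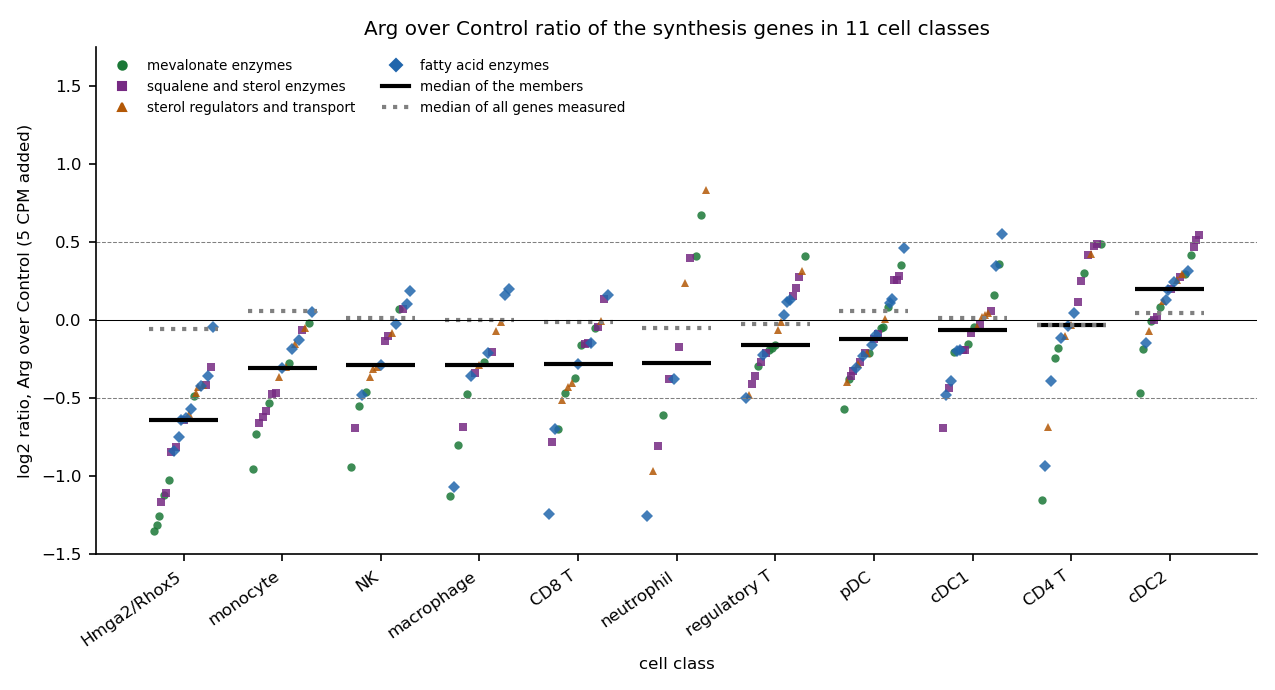
Log2 ratio of Arg over Control (vertical axis, 5 CPM added) of each measured synthesis gene, 1 point per gene, in the 11 cell classes along the horizontal axis, with marker shapes for the 4 gene roles, black bars for their median and dotted grey bars for the median of all measured genes. The black bar lies furthest below the grey one in the Hmga2 and Rhox5 clusters (−0.64 against −0.06) and above it in cDC2 (0.20 against 0.04).

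In the Hmga2 and Rhox5 clusters, 25 of 25 measured genes were below Control, and 16 were called lower, where 2.87% of 7916 measured genes were called lower and 63.2% were below Control at all. With no limit on low values, 30 of 30 genes were below Control, against 57.4% of all genes with a UMI. Mevalonate enzymes had the lowest median, −1.19. Fdps, which makes farnesyl diphosphate, stood at 86.7 CPM (82.4–91.0) in Arg and 223 CPM (219–227) in Control, a log2 ratio of −1.31. Idi1, the isomerase one step before it, stood at 33.2 CPM (30.6–36.0) in Arg and 92.7 CPM (90.2–95.4) in Control. For both genes the Arg value lay below the whole Control interval. The kinase Pmvk was at 12.9 and 37.8 CPM, Cyp51, a lanosterol demethylase, at 52.7 and 124 CPM, and Hmgcs1, which makes HMG-CoA, at 52.9 and 121 CPM. Nsdhl, Acat2, Msmo1, Elovl6, Fdft1, Scd2, Fasn, Sqle, Fads2, Stard4 and Scd1 were also called, with log2 ratios between −1.11 and −0.57. Acly was nearly level, at 41.3 CPM in Arg and 42.8 CPM in Control. On a list of other fatty acid genes 13 of 16 measured were below Control and 3 were called. Elovl5, an elongase of polyunsaturated fatty acids, was at 15.7 CPM in Arg and 25.7 CPM in Control, the elongation-cycle reductase Tecr at 54.3 and 79.2 CPM, and the acyl-CoA synthetase Acsl3 at 16.2 and 25.8 CPM.

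Both clusters showed the same direction. In C15, in which 99.4% of Arg and 99.8% of Control cells lay in the cycling range defined below, 25 of 25 measured genes were below Control with a median of −0.75, beside 65.2% of all genes. In C7, with 32.4% and 32.7% of cells in that range, 24 of 25 were below Control with a median of −0.62, beside 58.9% of all genes. Fdps was at 95.5 CPM in Arg and 246 CPM in Control in C15, and at 80.1 and 201 CPM in C7.

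**Figure D2:**
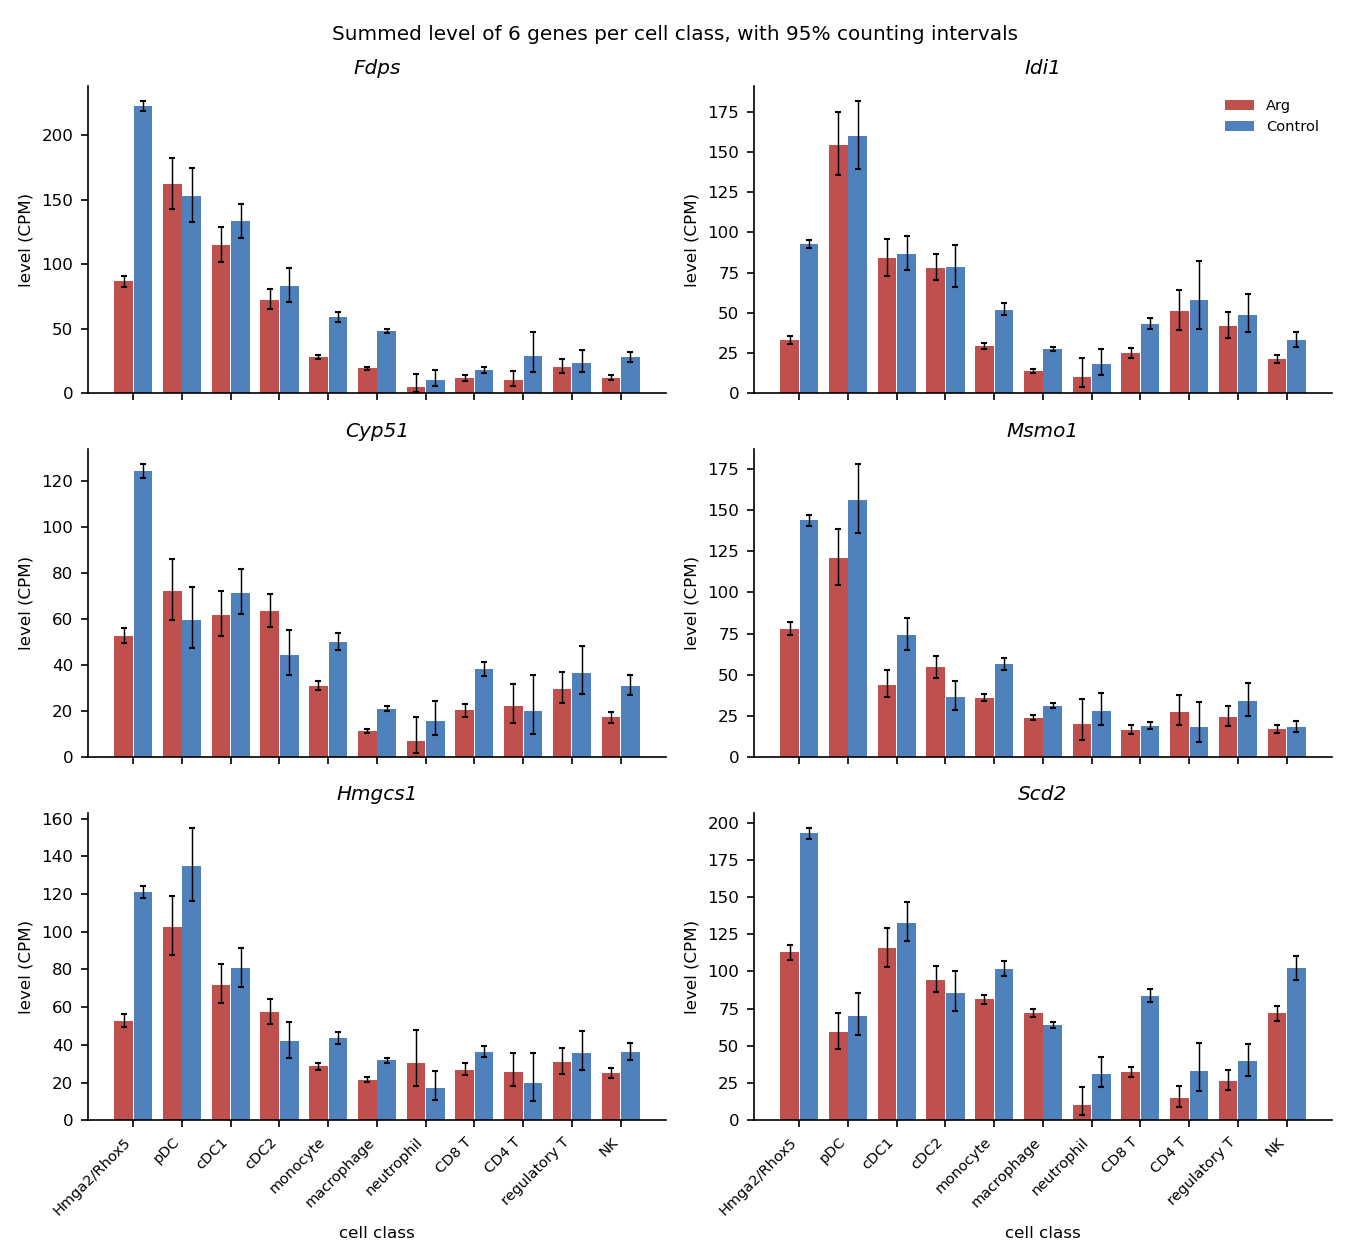
Summed level in CPM (vertical axes) of Fdps, Idi1, Cyp51, Msmo1, Hmgcs1 and Scd2 in the 11 cell classes (horizontal axes), with Arg in red left of Control in blue and 95% Poisson intervals as error bars. In the Hmga2 and Rhox5 clusters all 6 genes are lower in Arg, for example Fdps at 86.7 against 223 CPM, whereas in cDC2 Msmo1 is higher in Arg at 54.4 against 36.5 CPM.

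Monocytes had 18 of 19 measured genes below Control and 6 called lower, where 2.14% of 7275 genes were called lower and 36.2% were below Control. All 30 genes had UMIs there, and 27 were below Control, against 39.5% of all genes with a UMI. Fdps was at 28.1 CPM (26.3–29.9) in Arg and 59.2 CPM (55.4–63.2) in Control. Idi1 followed at 29.4 and 52.1 CPM. Sqle, which epoxidises squalene, was at 10.5 and 19.5 CPM, Cyp51 at 30.9 and 50.1 CPM, the methylsterol oxidase Msmo1 at 35.9 and 56.3 CPM, and Hmgcs1 at 28.6 and 43.5 CPM. In these 6 genes, picked by their ratios, the intervals of the libraries did not overlap, and such intervals were not counted over all genes. Hmgcs1 was the least firm of the 6, at −0.48 with doublets kept and −0.42 with lipid genes allowed in the clustering. The called genes of monocytes were all mevalonate, squalene or sterol enzymes, and no regulator or fatty acid gene was called. Each of the monocyte clusters showed the same direction, with 18 of 19 genes below Control in C1 (median −0.43) and in C2 (−0.29) and 14 of 17 in C13 (−0.39), beside 44.8%, 34.1% and 45.3% of all genes. Few monocytes lay in the cycling range, 1.69% in Arg and 2.69% in Control. The summed level of 8 macrophage markers in this class was 2421 CPM in Arg and 1849 CPM in Control, and its part in these ratios was not tested.

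Macrophages had 13 of 15 measured genes below Control and 4 called lower, against 5.88% of 7708 genes called and 50.1% below Control. Over all 30 genes 27 were below Control, against 49.8% of genes with a UMI. Fdps was at 19.3 CPM (18–20.8) in Arg and 48.2 CPM (46.6–49.9) in Control, a log2 ratio of −1.13. Fasn, the palmitate synthase, was at 4.72 and 15.4 CPM and so passed the limit on low values through Control alone. Idi1 was at 13.7 and 27.5 CPM and Cyp51 at 11.2 and 21.1 CPM. Acly and the desaturase Scd2 were higher in Arg without being called, at 55.5 and 71.9 CPM in Arg and 47.8 and 63.8 CPM in Control. RNA of the Hmga2 and Rhox5 clusters was estimated to supply 0.467 CPM of Fdps in Arg macrophages and 2.99 CPM in Control macrophages. With that RNA subtracted, the log2 ratio of Fdps was −1.07 and that of Cyp51 −0.61.

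The macrophage class differed in makeup between the libraries. C0, led by C1qc and Ccl12, was 12.4% of Arg and 41.5% of Control macrophages. C5, led by Mmp13 and Arg1, was 32.9% and 11%, and C12, led by Nos2 and Vcam1, was 19.8% and 2.63%. With the clusters weighted alike in both libraries, the median log2 ratio moved to −0.11 over 14 genes, Fdps to −0.74, Idi1 to −0.55 and Cyp51 to −0.47, which ended its call. The genes were below Control in 17 of 19 in C0, 16 of 19 in C9, 15 of 16 in C10 and 10 of 14 in C12, beside 44.5%, 49.3%, 45.3% and 52.8% of all genes, with medians from −0.30 to −0.21. In C5 and C6 they were below Control in 8 of 14 and 7 of 13, beside 35.8% and 37.9% of all genes, with medians of −0.04 and −0.07. Fdps was lower in Arg in 6 of 6 macrophage clusters, from −1.05 in C9 (28.1 and 63.6 CPM) to −0.33 in C5 (13.5 and 18.2 CPM). Insig1, which holds SREBP back, lay on both sides of Control. It was at 58.7 CPM in Arg and 30.5 CPM in Control in C6, the cluster led by Lyve1 and Ednrb, and at 16.9 and 31.1 CPM in C9, the cycling cluster. In macrophages 7 monocyte markers summed to 1493 CPM in Arg and 1008 CPM in Control, 8 neutrophil markers to 578 and 263 CPM, 7 B cell markers to 46.4 and 129 CPM, and 5 erythroid markers to 0.127 and 107 CPM. The part of these markers' differences in the ratios was not tested.

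Genes of sterol export and storage ran the other way in macrophages. Of 10 measured genes on a list of sterol export, LXR and esterification genes, 8 were higher in Arg and 4 were called higher, against 7.52% of all measured genes. Nr1h3, which encodes LXR alpha, was at 27.3 CPM in Arg and 16.5 CPM in Control. Its target Abcg1, a sterol exporter, was at 157 and 105 CPM. Soat1, which esterifies cholesterol for storage, was at 232 and 155 CPM, and Npc2, which carries cholesterol out of lysosomes, at 2097 and 1466 CPM. Within single clusters the log2 ratios of Soat1 and Npc2 were smaller, at most 0.38 and 0.29. Both were higher in Arg in 6 of 6 clusters, Abcg1 in 5 of 6 and Nr1h3 in 4 of the 5 in which it was measured. In C0, Nr1h3 was at 42.9 CPM in Arg and 20.1 CPM in Control, and Abcg1 at 143 and 86.7 CPM. In the other direction, Tmem97, a sterol-regulated membrane protein, was at 15.2 and 24.7 CPM, and Mid1ip1, an activator of acetyl-CoA carboxylase, at 33.2 and 55.1 CPM. Monocytes, CD8 T cells and the Hmga2 and Rhox5 clusters had no gene of the export list called, with 9, 9 and 6 measured and list medians of 0.01, 0.03 and 0.004.

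**Figure D3:**
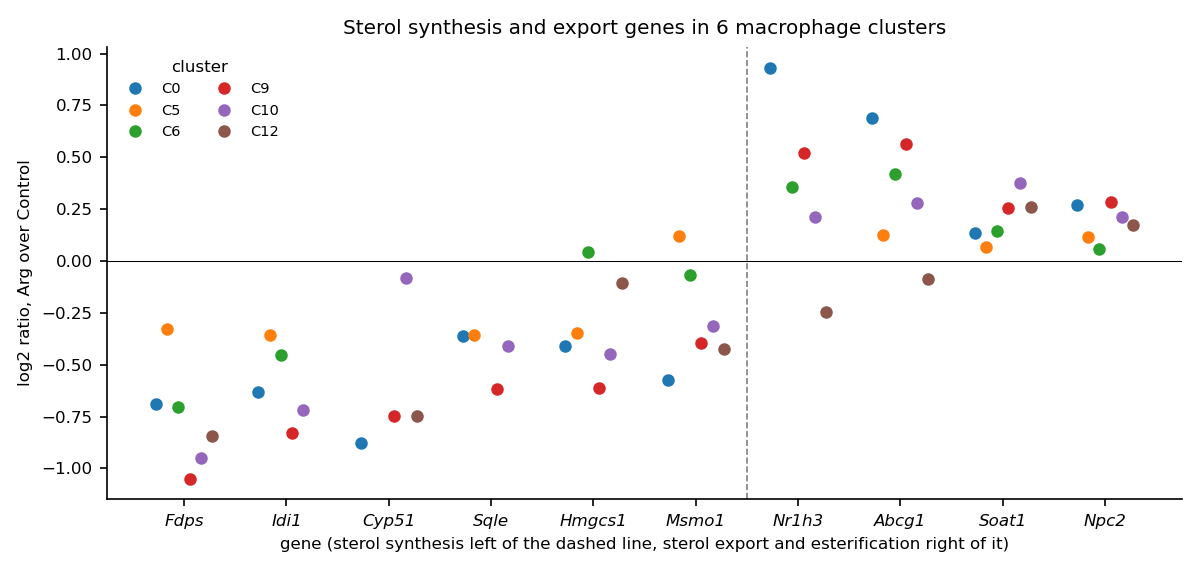
Log2 ratio of Arg over Control (vertical axis) of 6 sterol synthesis genes and 4 sterol export or storage genes (horizontal axis) in 6 macrophage clusters, 1 point per cluster in which the gene was measured. Fdps lies below 0 in 6 of 6 clusters, and Soat1 and Npc2 lie above 0 in 6 of 6, at up to 0.38 and 0.29.

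CD8 T cells had 17 of 19 measured genes below Control and 5 called lower, against 4.02% of 8001 genes called and 52.5% below Control. Over all 30 genes 26 were below Control, against 51.5% of genes with a UMI. Scd2, a stearoyl-CoA desaturase, was at 32.4 CPM (29.0–36.1) in Arg and 83.6 CPM (79.2–88.2) in Control, a log2 ratio of −1.24. Cyp51 was at 20.2 and 38.3 CPM, Fasn at 14.5 and 26.6 CPM, and Idi1 at 24.9 and 43.4 CPM. Stard4, a soluble sterol carrier, was at 27.8 and 41.7 CPM. Those 5 genes, picked by their ratios, had non-overlapping intervals, which were not counted over all genes. The call of Stard4 ended at −0.40 with the clusters weighted alike. Ebp, a sterol isomerase, and Acly were the measured genes with higher values in Arg, 65.1 and 48.3 CPM against 58.8 and 42.7 CPM in Control.

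Different clusters held most CD8 T cells in each library. L1, led by Pdcd1, Gldc and Tox, was 5.81% of Arg and 53.4% of Control CD8 T cells. L4, led by Serpine2, Nrn1 and Ifng, was 33.6% and 4.85%, and L3, led by Gzmk and Ccl5, was 31.2% and 9.63%. Within each of the 5 main clusters Scd2 was lower in Arg, from 21.7 and 85.1 CPM in L1 to 42.6 and 79.7 CPM in L8. Cyp51, Fasn, Idi1 and Stard4 were lower in Arg in 5 of 5 clusters as well. As a set, the genes were below Control in 14 of 17 in L1 (median −0.43), 17 of 22 in L3 (−0.23), 13 of 17 in L4 (−0.56) and 17 of 20 in L5 (−0.25), beside 47.3%, 48.1%, 51% and 57.3% of all genes. L8 was the exception, with 9 of 17 below Control, beside 51.6% of all genes, and a median of −0.01. Without L1, 17 of 20 genes were below Control with a median of −0.21, and Scd2 stood at −1.20. The share of all genes below Control without L1 is not given here.

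NK cells, which share much of the lymphocyte programme, had 13 of 17 measured genes below Control and 3 called lower, against 1.3% of 7997 genes called and 46.9% below Control. Over all 30 genes 22 were below Control, against 44.5% of genes with a UMI. Fdps was at 12.1 CPM (10.2–14.3) in Arg and 27.9 CPM (23.9–32.3) in Control, Cyp51 at 17.2 and 30.9 CPM, and Idi1 at 21.2 and 33.4 CPM. With the clusters weighted alike the Idi1 ratio was just short of a call, at −0.499. Scd2 was at 71.8 and 102 CPM, a log2 ratio of −0.48. Fasn, by contrast with CD8 T cells, was level in NK cells at 29.0 and 29.6 CPM. That contrast between classes was not tested.

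**Figure D4:**
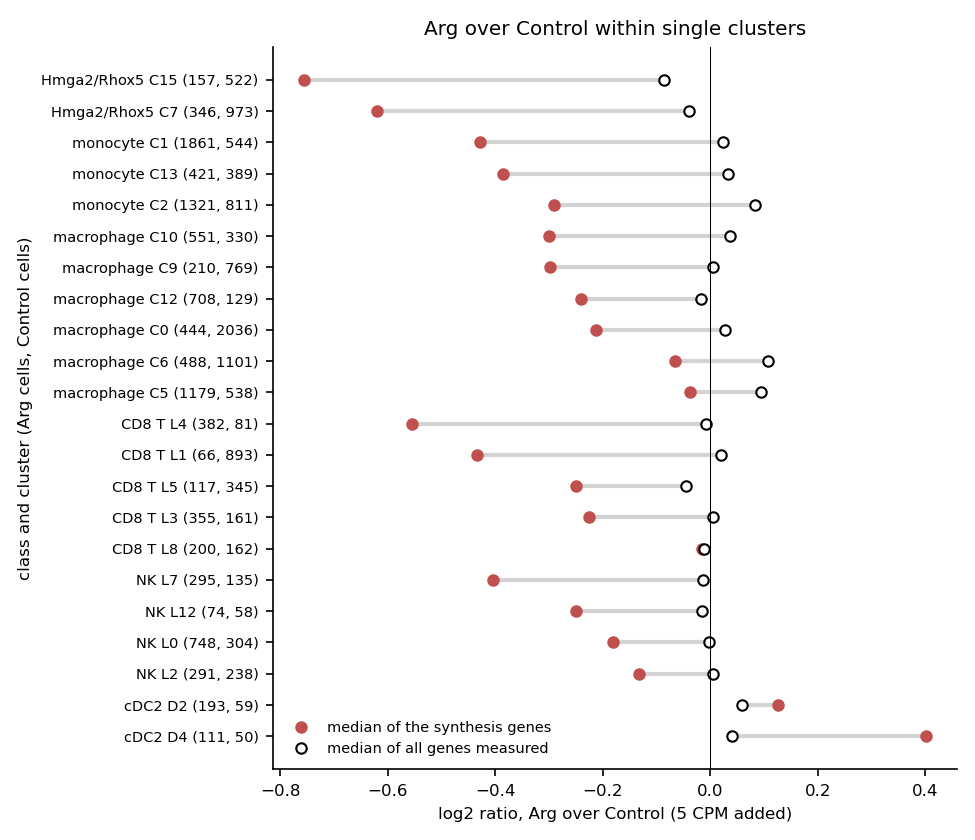
Median log2 ratio of Arg over Control of the measured synthesis genes (filled red) and of all measured genes (open) in single clusters of 6 classes (vertical axis, with Arg and then Control cell numbers in brackets). The red points lie left of the open ones in every cluster shown except the cDC2 clusters, with the largest gap in C15 (−0.75 against −0.09), and in CD8 T cluster L8 they nearly coincide.

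The cDC2 class, dendritic cells that prime CD4 T cells, showed the opposite direction. Of 22 measured genes 17 were higher in Arg and 2 were called higher, against 5.49% of 7267 genes called and 57.2% above Control. With no limit on low values, 11 of 30 genes were below Control, near the 42% of all genes with a UMI, and the median was 0.10. The squalene and sterol enzymes were above Control in 7 of 7 measured. Msmo1 was at 54.4 CPM (48.0–61.3) in Arg and 36.5 CPM (28.4–46.2) in Control, and Sc5d, a sterol desaturase, at 17.0 CPM (13.5–21) and 10.1 CPM (6.06–15.7). Cyp51 was at 63.4 CPM (56.5–70.8) and 44.5 CPM (35.5–55.1), a log2 ratio of 0.47 that was not called. The intervals of Sc5d overlap and those of Msmo1 and Cyp51 do not. Fdps was at 72.6 and 83.1 CPM and Idi1 at 78.1 and 78.4 CPM, so the genes that were lowest in the other classes were level or slightly lower here. The class held 396 Arg and 162 Control cells. In cluster D4, led by Ccl17 and Mgl2, 2 of 18 measured genes were below Control with a median of 0.40, beside 45.6% of all genes. In D2, led by Timd4 and Ifi205, 9 of 20 were below Control with a median of 0.13, beside 43.9% of all genes. Cluster D4 held 111 and 50 cells. The summed level of 7 monocyte markers in cDC2 was 1893 CPM in Arg and 2646 CPM in Control, and its part in this direction was not tested.

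The remaining classes differed less or held fewer UMIs. Plasmacytoid dendritic cells (pDC) had 18 of 27 measured genes below Control (41.2% of all genes) with a median of −0.12, and Mvk was called lower at 7.93 and 14.2 CPM, against 5.07% of 7887 genes called. Mvk passed the limit on low values through Control alone. In cDC1 14 of 22 were below Control (48.3% of all genes). Msmo1 was called lower at 43.9 and 74.1 CPM (4.63% of 7467 genes) and Elovl6 was called higher at 17.7 and 10.5 CPM (4.46%). Regulatory T cells had 13 of 21 below Control (53.8% of all genes) and Scd2 called, at 26.5 and 39.5 CPM (5.6% of 8265 genes), a log2 ratio of −0.50 that 8 other settings put short of a call. In CD4 T cells 10 of 19 were below Control (53.5% of all genes) and Fdps, Scd2 and Srebf1 were called lower, where 11.9% of 7979 genes were called. Fdps there rested on 14 UMIs in Arg and 16 in Control. Neutrophils had 7 of 12 below Control (54.6% of all genes), with 4 called lower (Scd2, Srebf2, Cyp51 and Idi1) and 2 called higher (Insig1 and Hmgcs1), shares that stand beside 17.1% and 13.9% of all 6316 measured genes. Cyp51, at 6.76 and 15.6 CPM, passed the limit there through Control alone. The 18 Hmgcs1 UMIs of Arg neutrophils came from 3 cells. Mast cells, with 177 Arg and 56 Control cells, and mature dendritic cells, with 69 and 59, were too few to compare as classes, and they differed in direction. In mast cells 17 of 18 measured genes were below Control with a median of −0.87 (47.6% of 7440 genes were below Control). Msmo1 was at 13.4 and 71.4 CPM there and Fdps at 10.7 and 51.6 CPM. In mature dendritic cells 5 of 15 were below Control with a median of 0.17 (51.4% of 6687 genes were below Control).

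The median log2 ratio of the 4 regulators and carriers was −0.45 in the Hmga2 and Rhox5 clusters, −0.42 in CD8 T cells and −0.23 in monocytes, and −0.07 over the 3 measured in macrophages. In CD8 T cells the mevalonate enzymes had a median of −0.37, the squalene and sterol enzymes −0.15 and the fatty acid enzymes −0.28. Stard4 was called lower in CD8 T cells and in the Hmga2 and Rhox5 clusters. Srebf2, which drives the sterol enzymes, was below Control in 10 of 11 classes, at 47.3 and 59.4 CPM in monocytes, 27 and 34.1 CPM in macrophages, 38.5 and 52.7 CPM in CD8 T cells and 42.6 and 59.0 CPM in the Hmga2 and Rhox5 clusters. Among these, no ratio reached 0.5 in size, and neutrophils were the only class in which Srebf2 was called, at 18.6 and 41.0 CPM. Srebf1, the partner that favours fatty acid genes, had log2 ratios of −0.01 in CD8 T cells, −0.09 in NK cells, −0.07 in macrophages and −0.05 in monocytes. Insig1 was at 16.2 and 23.6 CPM in CD8 T cells and at 34.1 and 34.5 CPM in macrophages. On a list of 12 other sterol and isoprenoid genes, of which 11 were in the files, 4 of 6 measured genes were below Control in CD8 T cells and 6 of 9 in macrophages, beside 52.5% and 50.1% of all genes. The 12 measured genes of the other fatty acid list were split 6 and 6 in CD8 T cells, with none called.

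The share of dividing cells differed between the libraries too. A cell was placed in the cycling range when a list of 27 cell cycle genes gave more than 10 UMIs per 10000, and 1603 cells lay between 8 and 12. The range held 24.3% of Arg and 42.2% of Control CD8 T cells, 14.6% and 34.2% of macrophages, 18.1% and 21% of NK cells, 53.3% and 56.1% of the Hmga2 and Rhox5 clusters, and 1.69% and 2.69% of monocytes. The cell cycle list itself was below Control in 27 of 27 genes in CD8 T cells (median −0.55), in 26 of 26 in macrophages (−0.89), in 27 of 27 in the Hmga2 and Rhox5 clusters (−0.35), in 20 of 26 in NK cells (−0.18) and in 3 of 5 in monocytes (−0.003). In CD8 T cells, the Hmga2 and Rhox5 clusters, macrophages and NK cells no synthesis gene was higher by a log2 ratio of 1 inside the range than outside it in both libraries, where 4.05%, 4.05%, 4.06% and 3.73% of all genes were. The median of those ratios was 0.16 in Arg and 0.20 in Control for CD8 T cells, beside −0.07 and −0.06 for all measured genes. It was 0.21 and 0.22 for macrophages, beside 0.05 and 0.03. For the Hmga2 and Rhox5 clusters it was 0.28 and 0.27, beside −0.03 and −0.03. For NK cells it was 0.14 and 0.13, beside −0.08 and −0.04. Regulatory T cells had 0.26 and 0.22, beside −0.09 and −0.06, and cDC1 had 0.07 and 0.07, beside 0.07 and 0.07. Among cells outside the range, the median log2 ratio of Arg over Control was −0.22 in CD8 T cells, −0.26 in macrophages, −0.24 in NK cells, −0.30 in monocytes and −0.67 in the Hmga2 and Rhox5 clusters.

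Between cell types, pDC, the producers of type I interferon, led for more synthesis genes than any other class. Of 29 synthesis genes measured for this order, 7 were highest of the 15 classes in pDC in both libraries (Hmgcs1, Mvd, Msmo1, Hsd17b7, Dhcr7, Insig1 and Fads2), where 7.72% of 12324 genes were. Fads2, a desaturase of polyunsaturated fatty acids, stood apart most. It was at 67.1 CPM (55.2–80.9) in Arg and 84.4 CPM (69.9–101) in Control in pDC, and the next class, fibroblasts, had 22.3 and 11.4 CPM. Insig1 was at 81.8 and 101 CPM in pDC and at 54.7 and 52.8 CPM in cDC1, the next class, with intervals apart in both libraries. Msmo1 was at 121 and 156 CPM in pDC, against 78.0 and 144 CPM in the Hmga2 and Rhox5 clusters, where the intervals overlapped in Control. In Control the intervals of Hmgcs1 and Dhcr7 also overlapped those of the next class. For Mvd and Hsd17b7 they overlapped in both libraries, with Mvd at 11.6 and 14.2 CPM in pDC and 10.8 and 14.1 CPM in monocytes. Srebf2 was at 118 and 157 CPM in pDC and at 118 and 121 CPM in cDC1, so only Control sets these classes apart.

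**Figure D5:**
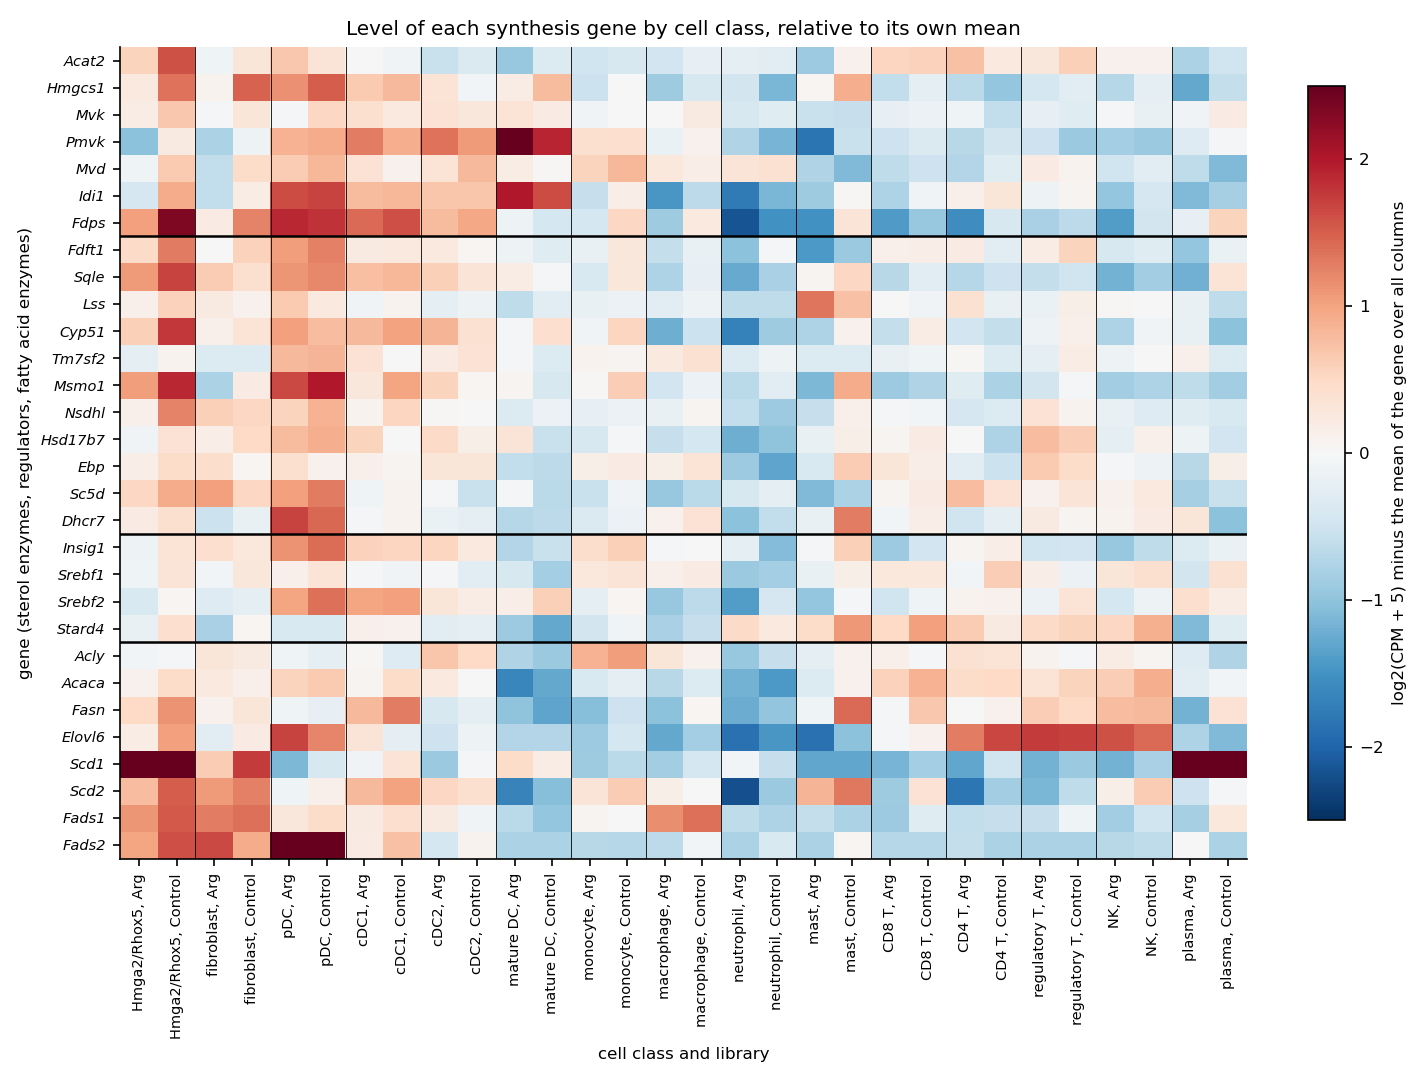
Level of each of the 30 synthesis genes (rows, grouped by role) in the 15 cell classes, Arg left of Control within each class (columns), as log2(CPM + 5) minus the mean of the gene over all columns. Plasmacytoid dendritic cells and the Hmga2 and Rhox5 clusters are red for most sterol genes, and neutrophils are blue. Scd1 is red in the class named plasma cells, at 121 CPM in Arg and 219 CPM in Control.

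A further 6 genes were highest in both libraries in 1 class each, a share of 1 in 29 for each of those classes, where 2.64% of genes led in plasma cells, 4.62% in mature dendritic cells, 3.85% in regulatory T cells, 1.27% in monocytes, 2.29% in NK cells and 3.52% in mast cells. Scd1, the desaturase typical of liver and fat, was at 121 CPM (92.9–154) in Arg and 219 CPM (169–280) in Control in plasma cells, and at 68.4 and 104 CPM in the Hmga2 and Rhox5 clusters. It stayed at or below 14.2 CPM in Arg and 36.1 CPM in Control in every other class. Plasma cells numbered only 62 and 37. Their cluster, C25, was led by Jchain and Igkc but also by the B cell genes Cd79a and Ms4a1. In it 6 plasma cell markers summed to 58342 CPM in Arg and 23342 CPM in Control, and 7 B cell markers to 10232 and 3889 CPM. The class may thus hold both B and plasma cells, and which of them held the Scd1 RNA was not tested. Mature dendritic cells, marked by Ccr7 and Fscn1, led for Pmvk with 209 CPM (179–242) and 132 CPM (106–163), against 88.9 and 71.5 CPM in cDC2. They also had 200 and 153 CPM of Idi1, with intervals that overlap those of pDC at 154 and 160 CPM. Elovl6, which lengthens palmitate, was highest in regulatory T cells at 56.0 and 54.6 CPM, close to NK cells at 50.1 and 43.4 CPM, and it was called lower in CD8 T cells than in NK cells, the only gene of 19 to be so (3.15% of genes were). Acly was highest in monocytes, at 83.8 and 96.1 CPM, and Acaca, which makes malonyl-CoA, in NK cells at 35.8 and 44.9 CPM, hardly above CD8 T cells at 35 and 43.6 CPM. Lss, the lanosterol synthase that led in mast cells, and Tm7sf2 reached at most 14.7 and 6.38 CPM in any class and library. They were measured in none of the 11 compared classes. The lead of Lss, at 14.7 and 7.93 CPM against 7.32 and 4.25 CPM in pDC, had overlapping intervals in both libraries.

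By the mean of both libraries, pDC ranked highest of the 15 classes for 11 of 29 genes, where 11.1% of 12324 genes did. The Hmga2 and Rhox5 clusters ranked highest for 7 (Acat2, Mvk, Sqle, Cyp51, Nsdhl, Scd2 and Fads1), where 13.6% did. In both libraries at once the Hmga2 and Rhox5 clusters were highest for none of the 29, where 10.4% of genes were highest there. For Cyp51 the order depended on the library, since Arg had 52.7 CPM in the Hmga2 and Rhox5 clusters and 72 CPM in pDC, and Control had 124 and 59.6 CPM. Fasn ranked highest in cDC1, at 29.6 CPM in Arg and 43.3 CPM in Control, Ebp in regulatory T cells at 85.1 and 73.3 CPM, Srebf1 in NK cells at 22.7 and 24.4 CPM, and Stard4 in mast cells at 26.7 and 43.6 CPM. Neutrophils ranked lowest for 12 of 29 genes, mast cells for 6 and mature dendritic cells for 5, where 27.8%, 7.4% and 12.2% of all genes did. The 5 were Stard4 and the fatty acid genes Acly, Acaca, Fasn and Fads1. Fasn was at 4.80 CPM in Arg and 2.97 CPM in Control in mature dendritic cells. In neutrophils, the cells of lowest depth, Fdps was at 5.07 and 10.7 CPM and Srebf2 at 18.6 and 41 CPM.

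Pairs of classes were compared within each library, and a gene was called where its log2 ratio was at least 1 in size with the same sign in both. The Hmga2 and Rhox5 clusters over macrophages had 12 of 24 genes called higher and none lower, against 12.3% and 15.9% of 8249 genes. These were Acat2, Hmgcs1, Idi1, Fdps, Fdft1, Sqle, Cyp51, Msmo1, Sc5d, Fasn, Elovl6 and Scd1. Neutrophils over monocytes had 8 of 17 called lower (Pmvk, Idi1, Fdps, Cyp51, Ebp, Srebf1, Acly and Scd2), against 20.9% of 7094 genes, and none called higher, against 10.2%. With doublets kept the count was 5 of 18. Macrophages over monocytes had a median log2 ratio of −0.40 in Arg and −0.49 in Control, beside −0.02 and 0.04 for all genes. Of 18 genes 16 were below 0 in both libraries, which was not counted over all genes. Cyp51 was called lower (2.41% of 7558 genes) and Fads1, another polyunsaturated fatty acid desaturase, called higher (2.7%). Mature dendritic cells over cDC2 had Acly, Acaca and Scd2 called lower of 18 (13.4% of 7205 genes) and none called higher (8.13%). For cDC1 over cDC2, Fasn alone of 22 was called higher (5.18% of 7485 genes) and none lower (6.07%). For CD8 T cells over NK cells none was called higher (2.81% of 8087 genes). Regulatory T cells over CD4 T cells had no gene of 20 called, where 3.67% of 8208 genes were called higher and 2.06% lower.

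Across the 15 classes the sterol genes differed in how closely they followed each other. Each gene's level, as the mean of both libraries, was correlated with the mean of the other sterol enzymes as a description, with no test, since the classes share 2 libraries. Pearson's r was 0.93 for Cyp51, 0.89 for Sqle, 0.88 for Nsdhl, 0.86 for Fdps, 0.86 for Msmo1 and 0.84 for Hmgcs1. It was lower for Acat2 (0.37), Lss (0.41), Pmvk (0.41), Ebp (0.48), Mvd (0.52) and Dhcr7 (0.53). Among the 13 mevalonate and sterol enzymes that averaged at least 20 CPM in some class, 74 of 78 pairs had a positive r, with a median of 0.53, where 54.6% of all gene pairs at that level were positive. Fads2 followed the sterol genes at 0.80, whereas Acly (0.14), Scd1 (0.15), Srebf1 (0.26) and Stard4 (−0.25) did not.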

How the data were processed

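The values are raw UMI counts per gene and barcode, as deposited by the authors in 2 droplet matrices of 32285 genes, 1 per diet, with 155927693 UMIs in Arg and 191505551 in Control. Counting was by cellranger 7.0.1 per the file headers, and by Cell Ranger 2.2.2 on GRCm38 per the submitters' processing notes. Barcodes under 200 genes, under 500 UMIs or over 10% mitochondrial UMIs were dropped, leaving 13875 in Arg and 13487 in Control, and Scrublet (expected rate 8%) removed 884 and 687 of these as doublets. With scanpy 1.11.5, cells were scaled to 10000 UMIs and clustered on 2000 variable genes without 80 lipid genes (30 components, 20 neighbours, Leiden resolution 1). T, NK and dendritic cells were clustered again. Clusters were named from 23 marker lists where 3 or more markers were found in at least 20% of cells with a log2 difference of 0.5. These limits were set after the clusters were seen, so each name stands for a cell like that type and may differ from the study's own. UMIs were summed per class and library, and a class needed 100 cells in each library to be compared, 30 to be shown, and a cluster 50. Intervals cover counting error only and treat every UMI as independent. No test was run, because each diet has 1 library. The rule named the genes called in a class (at most 10 by size), the highest and lowest class of each gene, and, of the other lists, those called in CD8 T cells or macrophages. The genes and lists were chosen with earlier results of these data known. Those named beyond the rule, such as the further 6 calls in the Hmga2 and Rhox5 clusters and Insig1 in single macrophage clusters, were singled out after their values were seen. Promoters came from RefSeq, gene positions from GENCODE on GRCm38, where all 30 genes and 32235 of 32285 identifiers were found. Alternatives covered the added CPM, TMM scaling (edgeR 4.0.16), low-value limits, cell filters, doublets, clustering, cycling cells, RNA of the Hmga2 and Rhox5 clusters, shared barcodes and cluster makeup.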

Additional observations from a re-analysis of the deposited data

Results flagged for a closer look

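In opposite directions stood the synthesis genes of cDC2 and of the Hmga2 and Rhox5 clusters. In cDC2 the median log2 ratio of Arg over Control was 0.20, beside 0.04 for all genes. There 17 of 22 measured genes were above Control, beside 57.2% of all genes. In the Hmga2 and Rhox5 clusters the median was −0.64, beside −0.06, with 25 of 25 below Control, beside 63.2%. With no limit on low values, 11 of 30 genes were below Control in cDC2, near the 42% of all genes with a UMI. The difference between the 2 classes was not tested, since each diet has 1 library.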

How the results depend on the processing

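No paired analysis was possible because each diet has 1 library. Of 169 counts of genes under the alternatives, 152 stayed within 1.5 times the value given. Of 586 ratios of single genes, 149 lay outside the counting interval of the main ratio and 1 changed sign. That interval was for the ratio without added CPM, whereas the ratios compared with it had CPM added. The 149 therefore mix the effect of the added CPM with that of the alternative. Medians near 0 changed sign in CD4 T cells (up to 0.18 at resolution 2, also with TMM scaling, the stricter cell filter, lipid genes in the clustering and the mean over cells) and in cDC1 (0.01 as a mean over cells). With no limit on low values, genes below Control numbered 16 of 30 in CD4 T cells, 26 of 30 in CD8 T cells, 22 of 30 in NK cells, 27 of 30 in macrophages and 19 of 29 in neutrophils. With a limit of 30 CPM they were 5 of 7 in CD4 T cells, 6 of 8 in CD8 T cells, 15 of 15 in the Hmga2 and Rhox5 clusters, 5 of 8 in NK cells, 8 of 12 in cDC1, 6 of 8 in macrophages, 11 of 11 in monocytes and 6 of 9 in regulatory T cells, and 9 of 11 in cDC2 were above Control. CD4 T cells had 6 of 19 below Control both as a mean over cells and at resolution 2. With doublets kept, the neutrophil median changed sign, from −0.28 to 0.00273, and the neutrophil count over monocytes was 5. Apart from medians near 0, this was the 1 sign change among 158 class medians under the alternatives. As a mean over cells, Hmgcs1 in neutrophils turned to −0.458. For these counts the cause was not tested. Medians ranged from −0.73 to −0.49 in the Hmga2 and Rhox5 clusters, −0.43 to −0.24 in monocytes, −0.33 to −0.11 in macrophages, −0.39 to −0.16 in CD8 T cells, −0.32 to −0.13 in NK cells and 0.10 to 0.28 in cDC2. With RNA of the Hmga2 and Rhox5 clusters subtracted, an alternative chosen after seeing the data as were those without L1 and without shared barcodes, the medians were −0.26 in macrophages, −0.28 in CD8 T cells and −0.30 in monocytes. Weighting clusters alike was not run for CD4 T cells, neutrophils, pDC and regulatory T cells, and resolution 0.5 gave no cDC2 or monocyte class. Depth limits the classes of few UMIs, above all neutrophils and CD4 T cells.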

Other observations

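Monocytes had 1 of 14 measured genes of the other fatty acid list called higher, where 3.38% of 7275 genes were. It was Acsl1, an acyl-CoA synthetase, at 56.5 CPM in Arg and 28.9 CPM in Control. In macrophages Mid1ip1 was lower in Arg in 5 of 6 clusters, for example at 16.7 CPM in Arg and 36.8 CPM in Control in C10, the cluster led by interferon-induced genes.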
